A study of Mus musculus with 72 samples.

Results

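Vehicle-treated lymph nodes filled with Eμ-Myc B lymphoma were compared with early-passage cultures of naive Eμ-Myc lymphoma, using the cytoplasmic (input) RNA of both. The libraries were chosen by their labels: 6 vehicle lymph nodes and 3 naive lines, together 9 of the 72 libraries of the series, and the genes were the 32150 listed in both input tables. In the Eμ-Myc model a Myc transgene is driven by the immunoglobulin heavy chain enhancer, so that Myc is produced in B lineage cells and B lymphomas arise. The lymph nodes came from 6 C57BL/6 mice, numbered 1 to 6, that had received cells of clone 4242 carrying the MSCV Gfp vector. These mice were given vehicle on day 10 after transplantation and the nodes were taken 2 hours later. The naive lines, numbered 6, 33 and 38, came from clone 107, which carried the same vector. They were grown out of the lymph nodes of vehicle-treated mice that had succumbed to the disease, by passing the tissue through a filter and culturing the cells in medium with 20% fetal bovine serum for 2 to 3 passages. Age and sex of the mice are not given in the labels, and no sort is stated for the nodes.

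The nodes are therefore 1 clone in 6 mice and the lines are another clone in 3 cultures. Clone, tissue, culture and the table in which the reads were counted differ together, and their parts in any difference cannot be told apart. For this reason a gene was called higher or lower only where edgeR's adjusted p was under 0.05 and the fold change was at least 4-fold. The adjusted p alone was passed by 69.0% of the 16291 genes tested. With the fold threshold, 2266 genes (13.9%) were higher and 1099 (6.75%) were lower in nodes than in lines, and the median log2 fold change of all genes was 0.09. Counts of called list members below are to be read beside these shares of all genes. Levels are given as counts per M (CPM), scaled by the trimmed mean method (TMM).

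Library totals were 18.81 to 21.52 M gene counts in nodes and 16.83 to 22.36 M in lines. Line 38 stood apart from the other lines: it had at least 1 count for 30163 genes, against 19443 and 19715 in lines 6 and 33, while the nodes had between 20993 and 23615. Nodes and lines also differed in Lars2, which held 0.0117% to 0.0958% of input counts in nodes and 0.33% to 3.82% in lines. Every pair of libraries within a group differed by more than counting noise, as the mean chi-square per gene was at least 6.34 between nodes and at least 114.8 between lines. The labels do not say whether a line was sampled from more than a single culture, so p-values measure the spread between these samples.

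A B cell joins 1 variable (V) segment to its constant region in each chain of its antibody, and the descendants of a malignant B cell inherit the joined segments, although a light chain can be rearranged again. A lymph node is a meeting place built by stroma, vessels and phagocytes, in which T cells, B cells and plasma cells circulate or settle. Cultured lines are kept without these cells, in medium whose oxygen, serum and nutrients differ from those of tissue.

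The leading V segments of the nodes and of the naive lines are shown first, because each of them was abundant in 1 group and close to 0 in the other. The nodes were led by Ighv10-1 in the heavy chain and Igkv3-4 in the light chain, and the naive lines by Ighv2-2 and Igkv1-117. The last 120 bases of each segment, with a close relative to show how much of a read could match elsewhere, are given 5′ to 3′ on the coding strand from GRCm38. Capitals mark the bases that differ between a segment and the relative printed under it.
Ighv10-1 (chr12:114479005-114479124, minus strand): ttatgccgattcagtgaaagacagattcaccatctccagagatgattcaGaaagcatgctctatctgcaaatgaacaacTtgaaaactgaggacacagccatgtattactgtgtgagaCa
Ighv10-3 (chr12:114523441-114523560, minus strand): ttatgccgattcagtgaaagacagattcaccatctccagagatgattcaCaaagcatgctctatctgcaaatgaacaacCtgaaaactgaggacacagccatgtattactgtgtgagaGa
Ighv2-2 (chr12:113588267-113588386, minus strand): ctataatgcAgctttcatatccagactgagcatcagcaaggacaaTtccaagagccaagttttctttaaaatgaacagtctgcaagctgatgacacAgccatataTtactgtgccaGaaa
Ighv2-4 (chr12:113653291-113653410, minus strand): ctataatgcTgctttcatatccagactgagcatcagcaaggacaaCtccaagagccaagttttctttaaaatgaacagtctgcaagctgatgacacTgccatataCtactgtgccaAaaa
Igkv3-4 (chr6:70672258-70672377, plus strand): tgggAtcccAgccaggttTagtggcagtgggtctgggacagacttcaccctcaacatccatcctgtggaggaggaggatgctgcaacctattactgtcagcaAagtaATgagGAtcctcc
Igkv3-12 (chr6:70518730-70518849, plus strand): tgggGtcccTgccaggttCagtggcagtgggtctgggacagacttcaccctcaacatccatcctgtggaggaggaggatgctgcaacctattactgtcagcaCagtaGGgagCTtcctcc
Igkv1-117 (chr6:68121708-68121827, plus strand): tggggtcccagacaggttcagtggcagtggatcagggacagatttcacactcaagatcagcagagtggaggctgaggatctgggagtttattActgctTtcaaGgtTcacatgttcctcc
Igkv1-110 (chr6:68271148-68271267, plus strand): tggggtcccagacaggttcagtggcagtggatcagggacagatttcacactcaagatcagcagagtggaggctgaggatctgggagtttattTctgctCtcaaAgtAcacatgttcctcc

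Within the 120 bases, Ighv10-1 and Ighv10-3 were equal at 117 positions, Ighv2-2 and Ighv2-4 at 115, Igkv3-4 and Igkv3-12 at 112, and Igkv1-117 and Igkv1-110 at 116. Over the whole segment, 22.3% of the 50-base stretches of Ighv10-1 also occurred in Ighv10-3, and 41.9% of those of Ighv2-2 occurred in Ighv2-4, so counts of close relatives are uncertain. Node and line leaders were far apart, with 75 equal bases between Ighv10-1 and Ighv2-2, 86 between Igkv3-4 and Igkv1-117, and 0 shared 50-base stretches in either pair.

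Ighv10-1 had a lowest, median and highest level of 188, 205 and 252 CPM in nodes, against 0, 0 and 0.0586 CPM in lines 6, 33 and 38. The single read in line 38 gave a ratio of 10370-fold with a 95% counting interval of 1861 to 409623. Such intervals cover counting error only. Igkv3-4 had 358, 373 and 488 CPM in nodes, against 0.0581 CPM in line 6 and 0 in lines 33 and 38, a ratio of 19288-fold (3462 to 761846). Both segments were thus nearly confined to the nodes among these 9 libraries.

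Ighv2-2 ran the other way, with 0, 0.259 and 0.521 CPM in nodes and 153, 169 and 194 CPM in lines 6, 33 and 38 (log2 fold change −9.29 ± 0.30, SE). Igkv1-117 had 1.35, 2.02 and 2.68 CPM in nodes and 196, 182 and 195 CPM in the lines (−6.55 ± 0.16). Groups did not overlap for any of the 4 segments. They were picked as leaders by these same counts, so the lack of overlap is no separate result. V shares, V counts per library and numbers of V segments were taken over every segment listed for the nodes or for the lines. These were 130 heavy and 107 light segments for nodes and 81 and 103 for lines, so the sets differ. Among all heavy V counts, Ighv10-1 took 59.4% to 71.4% in nodes, and Ighv2-2 took 80.05% to 83.7% in lines. Among light V counts, Igkv3-4 took 59.0% to 64.3% in nodes, and Igkv1-117 took 58.6% to 76.3% in lines.

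Igkv12-46, the second light segment in every node with 19.3% to 27.1% of light V counts, had 111, 130 and 190 CPM in nodes and 0.756, 0.533 and 0.645 CPM in lines 6, 33 and 38 (7.79 ± 0.28). More V segments passed a minimum count in nodes, at a greater number of V counts per library. Heavy V counts were 6043 to 7489 in nodes and 3036 to 3949 in lines, and light V counts 13294 to 14892 in nodes and 3668 to 5749 in lines. Heavy segments with at least 10 counts numbered 28 to 47 in nodes and 6 in each line, and light segments 44 to 63 in nodes and 19 to 25 in lines. Of 80 V segments tested, 45 were higher and 10 were lower in nodes: 13 and 6 of 19 heavy segments, and 32 and 4 of 61 light segments.

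**Figure D1:**
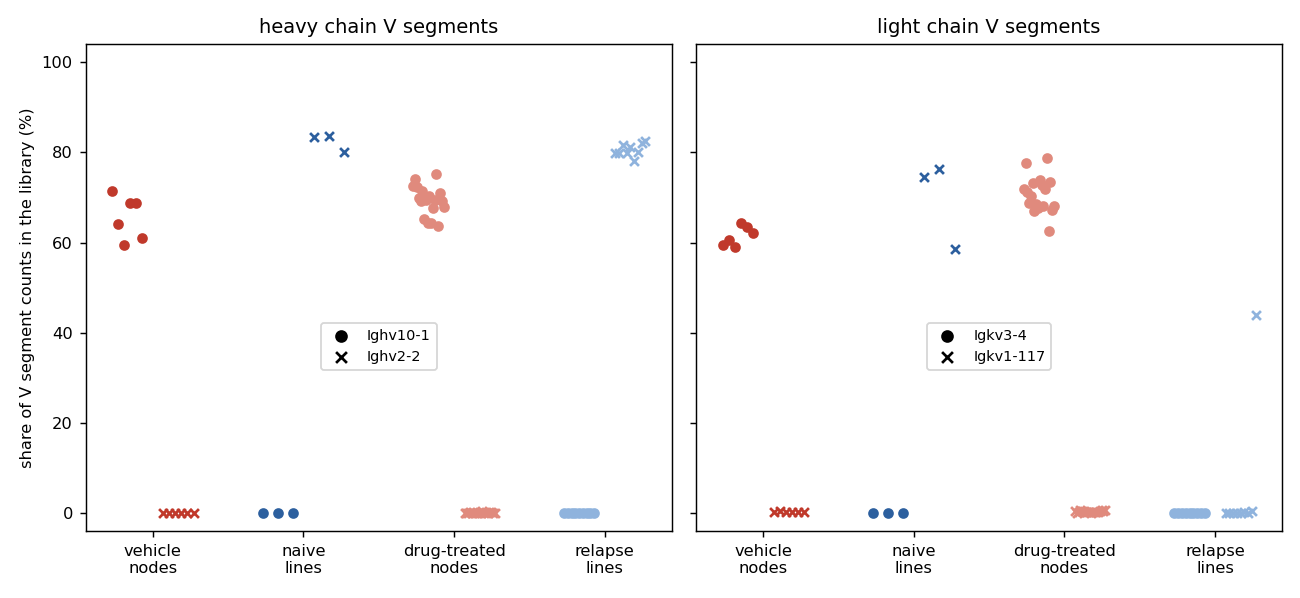
Share (percent) of the heavy (left) and light (right) chain V counts of each input library taken by the leading segment of the nodes (dots) and of the naive lines (crosses), for vehicle nodes, naive lines, drug-treated nodes and relapse lines. Ighv10-1 held 59.4% to 71.4% of heavy V counts in nodes, and Ighv2-2 held 80.05% to 83.7% in lines.

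Both groups expressed B cell genes, whose levels alone do not separate lymphoma from host B cells. Igkc, the kappa constant region, had 450, 471 and 510 CPM in nodes, against 367, 516 and 433 CPM in lines 6, 33 and 38, and the groups overlapped (0.12 ± 0.12, edgeR adjusted p = 0.359). Cd79a, a signalling chain of the B cell receptor, had 242 to 267 CPM in nodes and 310 to 449 CPM in lines (−0.61 ± 0.11), a difference under 4-fold. Ighm, the heavy chain of IgM, had 1253 to 1513 CPM in nodes and 2049 to 2527 CPM in lines (−0.73 ± 0.12), also under 4-fold. None of the 15 B identity genes was called in either direction. Of these 15, 2 were higher and 9 were lower at the adjusted p alone, with Ms4a1 at 1.67 and Cd22 at −1.50 as the ends of the range.

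Myc itself had 661, 796 and 836 CPM in nodes and 1179, 997 and 1024 CPM in lines 6, 33 and 38 (−0.45 ± 0.11), so the lines were higher without overlap but well under 4-fold. Gene counts do not separate the transgene from the endogenous gene. Y-linked genes were present in both groups, and Xist, which coats the inactive X chromosome, was at or under 0.938 CPM in all 9 libraries.

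Transcripts of host cells were higher in nodes across every cell type listed. Over 10 lists of markers for cells a lymph node could hold besides the lymphoma, 148 of 160 genes in both tables were tested, 131 were higher in nodes and 0 were lower, where 13.9% of all genes were higher. These 160 genes took 0.511% to 0.658% of scaled counts in nodes and 0.0274% to 0.0361% in lines. The nodes had at least 1 count for 155 to 157 of them, and lines 6, 33 and 38 for 61, 80 and 137. In bulk RNA, fewer cells of a type and less RNA per cell cannot be told apart. Line 38 gave 70.7% of the lines' counts for cytotoxic genes and 63.3% for neutrophil and mast cell genes. Without line 38, 136 of 150 tested host genes were higher.

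Stroma was seen clearly, with all 20 tested fibroblastic and reticular genes higher (median log2 fold change 7.71, or 7.31 with genes at 0 in the lines set to their bound). Col3a1, a fibrillar collagen of reticular fibres, had 408, 487 and 502 CPM in nodes, against 0, 0.133 and 0.411 CPM in lines 6, 33 and 38 (11.30 ± 0.36). Col1a1, the main collagen of connective tissue, had 212, 323 and 346 CPM in nodes and 0.0581, 0 and 0.88 CPM in the lines (9.82 ± 0.51). Mmp2, a secreted protease that cuts matrix, was at 6.49 to 9.05 CPM in nodes and 0 in every line, at least 127-fold higher by a floor of 3 counts over the lines. Acta2, the smooth muscle actin, showed the smallest rise of the list, with 26.1 to 47.2 CPM in nodes and 7.80 to 8.26 CPM in lines (2.03 ± 0.21).

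Macrophage and monocyte genes were higher for 18 of 19 tested members (median 6.56). Lyz2, the lysozyme of phagocytes, had 190, 218 and 266 CPM in nodes, against 0, 0 and 0.0586 CPM in lines 6, 33 and 38, a ratio of 10962-fold (1967 to 433010). C1qa, a chain of the complement starter C1q that tissue macrophages make, had 42.6, 44.1 and 57.8 CPM in nodes and the same single count in line 38 as Lyz2, a ratio of 2336-fold (419 to 92291). Emr1, which encodes the F4/80 surface marker, had 19.7 to 24.5 CPM in nodes and 0, 0.2 and 0.469 CPM in the lines (6.56 ± 0.35). Timd4, a receptor of resident macrophages for dying cells, had 4.94 to 8.20 CPM in nodes and was at 0 in all lines. Every node lay above every line for all 4 genes.

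T cell genes were higher for 20 of 23 tested members (median 3.95). Trbc2, a constant region of the T cell receptor, had 5.75, 7.68 and 10.7 CPM in nodes and 0 in the lines, at least 130-fold higher. It shares 44.0% of its 50-base stretches with other genes, so its count may hold reads of Trbc1. Cd4, the co-receptor of helper T cells, had 22.3 to 31.2 CPM in nodes and 0.116, 0 and 0.469 CPM in the lines (6.93 ± 0.37), while Cd8a had 1.65 to 4.94 CPM in nodes and 0, 0.0666 and 0.762 CPM in lines (3.52 ± 0.67). Lat, an adaptor below the receptor, was at 2.20 to 3.99 CPM in nodes and 0 in lines. The 3 members without a call, Cd2, Cd3d and Lck, had log2 fold changes of −1.46, 1.21 and 1.79.

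Cytotoxic genes were at lower levels, and 9 of 12 were higher (median 3.85, or 3.32 at the bounds). Ccl5, a chemokine of cytotoxic lymphocytes, had 3.16, 3.34 and 6.07 CPM in nodes and 0 in the lines, at least 62.0-fold higher. Il2rb, the beta chain of the IL-2 receptor, had 8.55 to 12.7 CPM in nodes and 0, 0 and 0.235 CPM in lines (6.80 ± 0.47). Dendritic cell genes were higher for 7 of 10 members (median 3.26), including Itgax, the CD11c integrin, with 8.51 to 13.7 CPM in nodes and up to 0.235 CPM in lines (6.42 ± 0.40). Neutrophil and mast cell genes were higher for 12 of 13 (median 4.97, or 4.13 at the bounds). S100a8 and S100a9, the calprotectin pair of neutrophils, were at 5.56 to 10.96 CPM and 7.40 to 16.6 CPM in nodes and at 0 in every line.

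Vessel genes were higher for 17 of 20 members (median 5.61, or 5.35 at the bounds). Lyve1, a hyaluronan receptor of lymphatic endothelium, had 28.4, 29.5 and 35.6 CPM in nodes and 0, 0 and 0.0586 CPM in lines 6, 33 and 38, a ratio of 1497-fold (269 to 59136). Cldn5, a tight junction protein of endothelium, had 3.58 to 6.23 CPM in nodes and a single count in line 38. Pecam1 was not called, with 51.2 to 77.9 CPM in nodes and 32.6 to 49.9 CPM in lines (0.71 ± 0.17), so this common endothelial marker was well expressed in the cultured lymphoma. Node chemokines and follicular dendritic cell genes were higher for 12 of 13 (median 6.95). Cxcl13, which draws B cells into follicles, had 5.99, 9.44 and 10.6 CPM in nodes and 0 in the lines, at least 149-fold higher. Clu, a secreted chaperone abundant in follicular dendritic cells, had 72.4 to 112 CPM in nodes and 0 to 0.176 CPM in lines (9.97 ± 0.36).

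Blood and surrounding tissue were also visible. All 8 tested erythroid and platelet genes were higher (median 9.11). Hba-a1, an alpha globin, had 295, 525 and 663 CPM in nodes and 0 in the lines, at least 8249-fold higher, the largest bound among the named genes. Its twin Hba-a2 has nearly the same sequence, so the split between them is uncertain, and it had 274 to 618 CPM in nodes and a single count in line 33. Adipocyte, muscle and epithelial genes were higher for 10 of 12 (median 6.20), and their sum ran from 247 to 572 CPM in nodes and from 15.98 to 32.1 CPM in lines. Cidec, a lipid droplet protein of fat cells, ran from 4.98 to 24.7 CPM in nodes with a single count in line 38, and Ckm, the muscle creatine kinase, from 7.69 to 46.6 CPM in nodes and 0 to 0.117 CPM in lines.

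**Figure D2:**
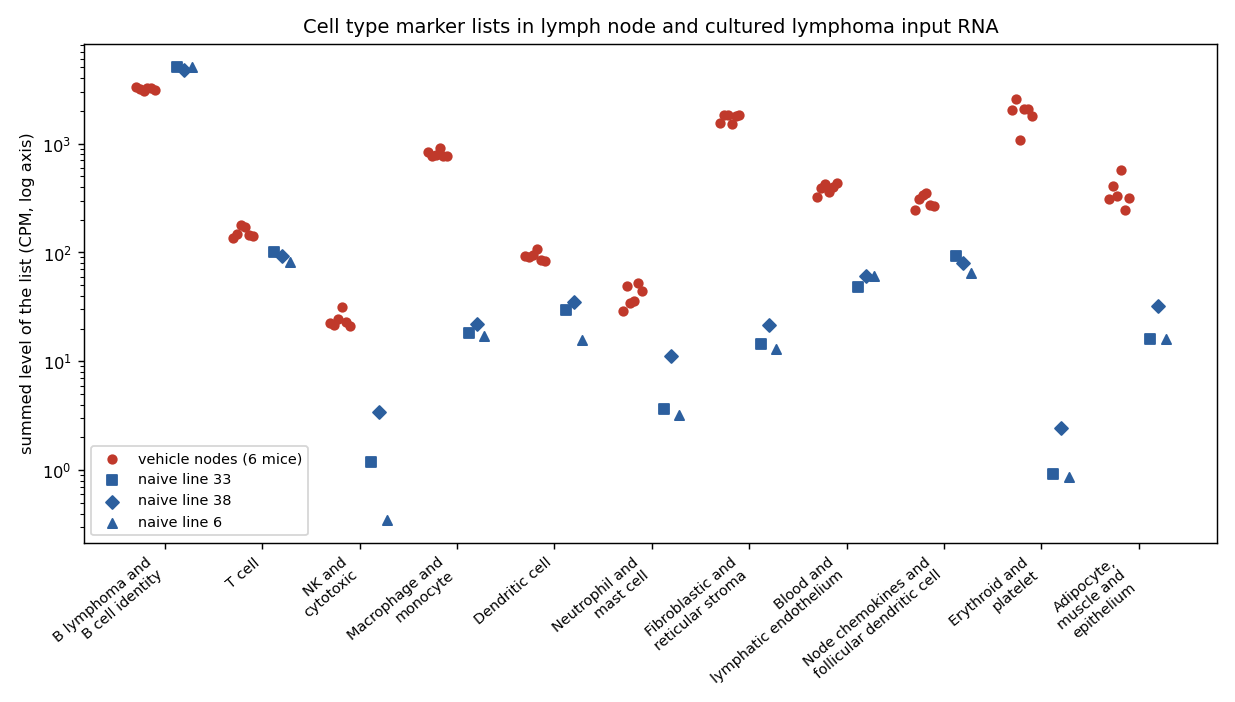
Summed CPM (log axis) of the B identity list and the 10 host cell lists, with 1 red point for each vehicle node and 1 blue symbol for each naive line. The nodes lay below the lines in B identity genes and above them in each host list, for example 1504 to 1827 CPM against 13.1 to 21.6 CPM for stroma.

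Plasma cell genes were higher for 7 of 9 tested members (median 5.59), and the other two were lower at the adjusted p alone. Their summed level overlapped, at 94.2 to 165 CPM in nodes and 93.4 to 99.5 CPM in lines. The switched heavy chains moved together: Ighg2c had 13.8, 29.7 and 47.98 CPM in nodes and 0, 0 and 0.0586 CPM in lines 6, 33 and 38, a ratio of 1526-fold (274 to 60303). Ighg2b had 10.1 to 40.2 CPM in nodes and 0, 0 and 0.352 CPM in lines (7.59 ± 0.80). Igj, the chain that joins IgM and IgA units, had 7.02 to 13.7 CPM in nodes and 0, 0 and 0.176 CPM in lines. The nodes spread widely among themselves in the switched chains, while all of them lay above all lines. These chains were picked among called genes, so the lack of overlap is no separate result.

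Markers of B cell stage split by gene. Of 15 mature B cell genes, 4 were higher and 0 were lower (median 1.45), where 13.9% of all genes were higher. At the adjusted p alone, 12 were higher and 3 were lower, down to −1.76. Cxcr5, the receptor for Cxcl13, had 5.00, 6.06 and 7.27 CPM in nodes and 0.523, 0.133 and 0.645 CPM in lines 6, 33 and 38 (3.76 ± 0.34). Bank1, a scaffold in B cell receptor signalling, had 65.2, 70.3 and 74.6 CPM in nodes and 14.5, 7.99 and 7.57 CPM in lines (2.80 ± 0.19). Fcer2a, the low-affinity IgE receptor CD23, had 2.26 to 4.56 CPM in nodes and 0.0581, 0.133 and 0.938 CPM in lines (3.06 ± 0.55). Among homing genes 3 of 15 were higher, and at the adjusted p alone 9 were higher and 3 were lower. Called genes included Gpr183, an oxysterol receptor that positions B cells. It had 3.06 to 5.59 CPM in nodes and 0.117 to 0.465 CPM in lines (3.62 ± 0.37).

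Of 7 tested precursor B cell genes, 2 were higher and 1 was lower. Rag2, a subunit of the recombinase that joins V segments, had 0.943, 1.23 and 1.49 CPM in nodes and 9.42, 5.19 and 7.21 CPM in lines 6, 33 and 38 (−2.54 ± 0.22). Lef1, a transcription factor also used in T cells, had 2.64 to 6.10 CPM in nodes and 0.399 to 1.11 CPM in lines (2.43 ± 0.35). Erg, a transcription factor also strong in endothelium, had 1.89 to 3.51 CPM in nodes and 0, 0 and 0.352 CPM in lines (4.56 ± 0.62). T cell and vessel lists were higher in the same nodes, and their part in these 2 genes was not tested.

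Interferons induce a set of antiviral genes through the factor ISGF3, which contains Stat2 and Irf9 and binds a repeated GAAA element in promoters. Of 30 interferon-stimulated genes, 25 were higher and 0 were lower in nodes (median 4.15), where 13.9% of all genes were higher. Their summed level was 513 to 654 CPM in nodes and 106 to 108 CPM in lines. Oas1a, an enzyme that makes the activator of RNase L, had 19.8, 28.5 and 33.6 CPM in nodes and 0, 0 and 0.117 CPM in lines 6, 33 and 38, a ratio of 672-fold (186 to 5548). It shares 57.6% of its 50-base stretches with other genes, so its count is uncertain. Rtp4, a receptor-transporting protein that interferon induces, had 8.51 to 12.5 CPM in nodes and a single count in line 38, a ratio of 529-fold (94.8 to 20908).

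Irf7, which amplifies the response, had 28.0, 31.6 and 36.2 CPM in nodes and 0.64, 0.333 and 0.528 CPM in lines (5.96 ± 0.20). Stat2 had 23.8 to 34.1 CPM in nodes and 34.0, 30.8 and 26.8 CPM in lines, and the groups overlapped (0.01 ± 0.12). Irf9 had 29.0 to 37.1 CPM in nodes and 7.12 to 9.83 CPM in lines (1.96 ± 0.13), just under 4-fold. The 10 host cell lists were higher in the same nodes, at 0.511% to 0.658% of scaled counts in nodes and 0.0274% to 0.0361% in lines, and their part in the interferon, complement and MHC genes was not tested.

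Promoter stretches are shown for 4 of the higher genes and for Stat2, because the ISGF3 element is the feature they might share. The letters searched were GAAA, any 2 bases and GAAA again, on both strands, in windows from 250 bases before to 50 after the start site (RefSeq, GRCm38.p6). Capitals mark matches, overlapping matches joined, within 80 bases given 5′ to 3′ on the gene's strand.
Oas1a (chr5:120907526-120907605, minus strand): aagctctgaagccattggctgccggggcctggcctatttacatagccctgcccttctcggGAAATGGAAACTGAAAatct
Isg15 (chr4:156200842-156200921, minus strand): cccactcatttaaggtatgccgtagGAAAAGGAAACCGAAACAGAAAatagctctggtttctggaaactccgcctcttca
Ifit1 (chr19:34640760-34640839, plus strand): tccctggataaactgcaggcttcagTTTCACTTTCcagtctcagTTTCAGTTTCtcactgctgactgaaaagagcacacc
Ifit3 (chr19:34583348-34583427, plus strand): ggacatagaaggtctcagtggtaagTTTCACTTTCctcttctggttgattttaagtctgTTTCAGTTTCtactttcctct
Stat2 (chr10:128270251-128270330, plus strand): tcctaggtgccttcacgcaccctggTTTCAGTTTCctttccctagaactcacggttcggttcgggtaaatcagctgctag

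Of the 30 list members, 21 had a window and 12 held the letters, against 3.99% of all 27025 genes with a window. Among the 12 with a match 10 were called higher, and among the 9 without 6 were called higher. Ifit1, an RNA-binding antiviral protein, had 4.77 to 8.51 CPM in nodes and 0, 0 and 0.293 CPM in lines (5.84 ± 0.55). Isg15, a ubiquitin-like modifier, had 8.64 to 13.6 CPM in nodes and 0.581 to 1.11 CPM in lines (3.86 ± 0.25). A match is a description of the sequence, and Stat2 held a match too.

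Complement genes were higher for 10 of 11 members (median 8.48). C3, the central component, had 267, 295 and 346 CPM in nodes and 0, 0 and 0.645 CPM in lines 6, 33 and 38 (10.37 ± 0.47). Serping1, the inhibitor of C1, had 48.6 to 58.7 CPM in nodes and 0 to 0.0666 CPM in lines, a ratio of 1333-fold (369 to 11010).

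MHC class II genes, which present peptides to helper T cells, split. H2-Eb1 had 97.7, 110 and 125 CPM in nodes and 9.25, 13.2 and 10.3 CPM in lines 6, 33 and 38 (3.33 ± 0.14), and H2-Aa had 149, 166 and 193 CPM in nodes and 21.5, 29.2 and 23.5 CPM in lines (2.78 ± 0.14). Together with H2-DMa (2.21 ± 0.18) they were the 3 members called higher of 14, and 0 were lower. H2-Ab1, the partner chain of H2-Aa, went against it at −0.57, and the invariant chain Cd74 was at 1.30, both under 4-fold. In class I presentation 1 of 14 was called higher, where 13.9% of all genes were higher. This was Nlrc5, the transactivator of class I genes, with 65.7 to 77.5 CPM in nodes and 13.0 to 16.7 CPM in lines (2.35 ± 0.11).

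**Figure D3:**
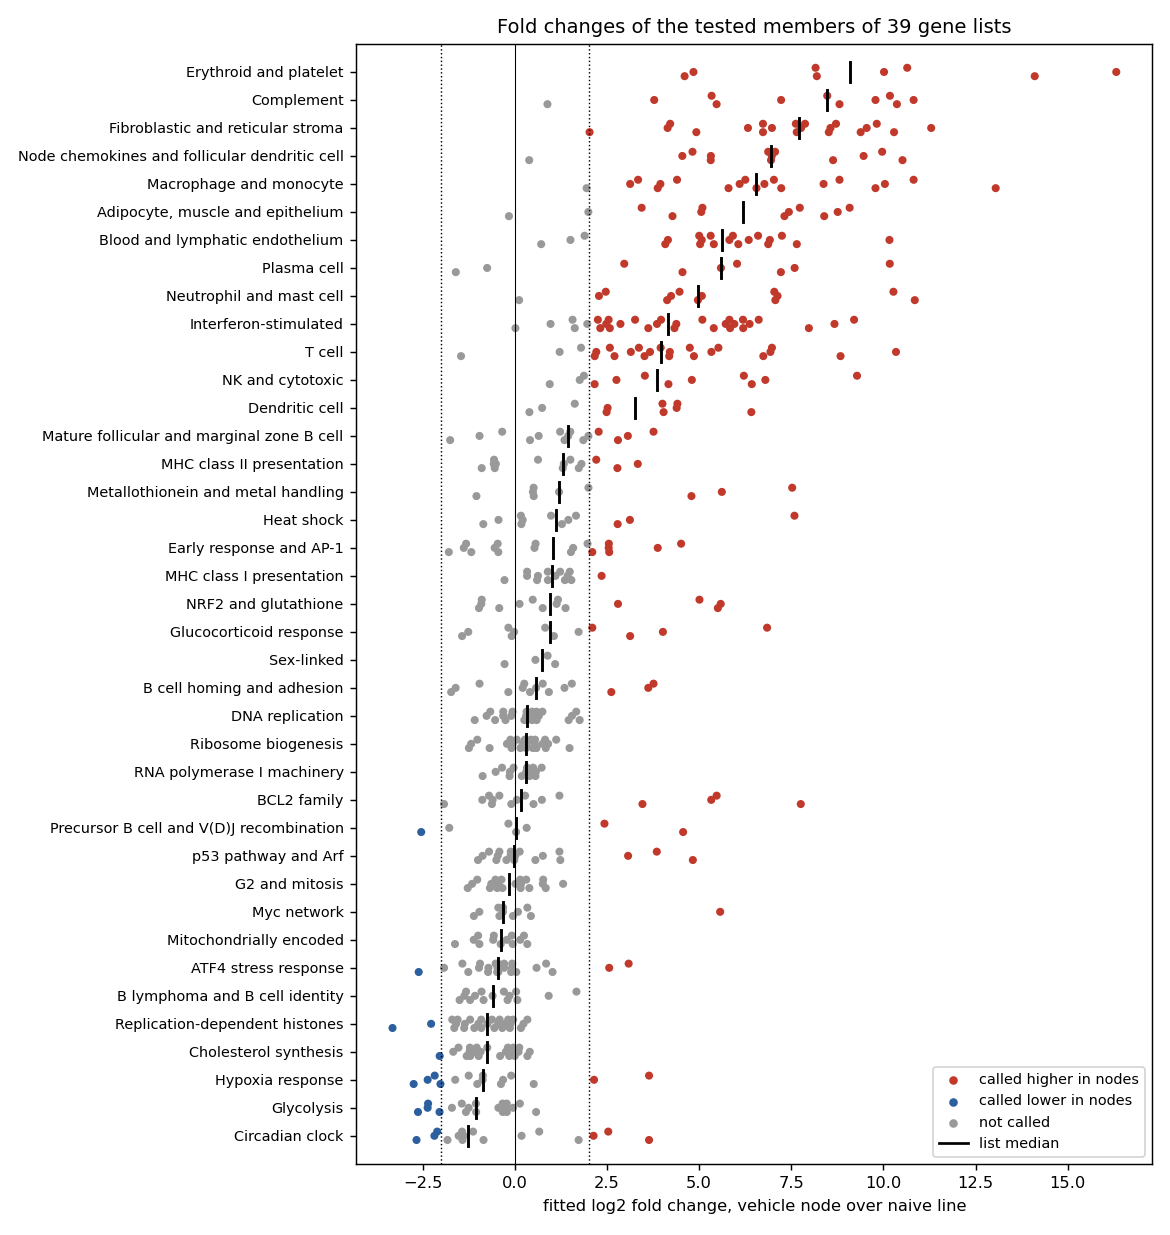
Log2 fold change (vehicle node over naive line) of every tested member of the gene lists, with 1 point for each gene, a bar for the median, dotted lines at 4-fold and called genes in red (higher) or blue (lower). Medians ran from 9.11 for erythroid and platelet genes to −1.26 for circadian genes.

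Early response genes, transcribed within minutes of a stimulus, were higher for 6 of 18 members and lower for 0. Fos, a subunit of the factor AP-1, had 5.14, 6.59 and 8.88 CPM in nodes and 0.174, 0.599 and 0.117 CPM in lines 6, 33 and 38 (4.51 ± 0.40). Klf4, a zinc finger factor also found in myeloid and stromal cells, had 1.97 to 3.73 CPM in nodes and 0.116 to 0.293 CPM in lines (3.88 ± 0.39). The summed level of the list was the other way round, at 983 to 1185 CPM in nodes and 1520 to 1650 CPM in lines. Glucocorticoid response genes were higher for 4 of 12, led by Tgfbr3, a co-receptor of TGF-beta, with 16.7 to 21.8 CPM in nodes and 0, 0.266 and 0.235 CPM in lines (6.84 ± 0.33). The median of this list was 0.94. Its summed level overlapped, at 254 to 379 CPM in nodes and 291 to 332 CPM in lines. At the adjusted p alone 7 were higher and 2 lower, and with a test against 4-fold 2 were higher.

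Genes for heme, iron and oxidant handling were higher for 4 of 14 in the NRF2 list and 3 of 9 in the metal list. At the adjusted p alone, 9 were higher and 4 lower in the NRF2 list, and 8 and 1 in the metal list. The summed NRF2 list overlapped, at 1076 to 1433 CPM in nodes and 958 to 1155 CPM in lines. The summed metal list was at 1020 to 1179 CPM in nodes and 476 to 571 CPM in lines. Hmox1, which breaks down heme, had 87.1, 103 and 150 CPM in nodes and 2.33, 2.33 and 2.29 CPM in lines 6, 33 and 38 (5.58 ± 0.22). Slc40a1, the iron exporter ferroportin, had 22.6, 30.4 and 38.4 CPM in nodes and 0, 0.133 and 0.352 CPM in lines (7.52 ± 0.39). Slc11a1, a metal transporter of phagocyte vesicles, had 15.2 to 21.1 CPM in nodes and 0.0581 to 0.821 CPM in lines (5.62 ± 0.37). The macrophage list was 773 to 902 CPM in these nodes and 17.1 to 22.1 CPM in the lines, and its part in these 3 genes was not tested.

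A few low-level members of other lists were higher. In the p53 list 3 of 19 were higher, near the 13.9% of all genes, and the median was −0.02, with a summed level of 622 to 668 CPM in nodes and 722 to 733 CPM in lines. The 3 included Fas, a death receptor, with 0.695 to 1.81 CPM in nodes and 0, 0 and 0.235 CPM in lines (3.85 ± 0.73). Trp53 itself overlapped at 161 to 214 CPM in nodes and 196 to 213 CPM in lines. In the BCL2 family 4 of 16 were called. Of these, Bcl2a1b and Bcl2a1d share 79.2% and 79.5% of their 50-base stretches with other genes and cannot be counted apart. Hspb1, a small heat shock protein, had 3.00 to 6.18 CPM in nodes and a single count in line 38, and shares 48.8% of its 50-base stretches. It was 1 of 3 heat shock members of 12 called higher. Among protein-coding genes with under 5% shared stretches, 0 members of the BCL2 family and 0 of the heat shock list were called higher.

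Some metabolic genes were called lower. Of 19 glycolysis genes 4 were lower and 0 higher in nodes (median −1.05), where 6.75% of all genes were lower. Slc2a1, the glucose transporter GLUT1, had 27.3, 34.6 and 39.1 CPM in nodes and 143, 198 and 186 CPM in lines 6, 33 and 38 (−2.37 ± 0.13). Slc16a3, a lactate exporter, had 9.81, 15.3 and 18.6 CPM in nodes and 43.0, 124 and 105 CPM in lines (−2.63 ± 0.28), with line 6 lowest among the lines. Tpi1 (−2.36 ± 0.16) and Aldoa (−2.05 ± 0.16), enzymes of the middle of the pathway, were the other two. Ldha, which makes lactate, was at −0.05 and Pgk1, which yields ATP, at −0.22, and neither was called. With a test against 4-fold 2 glycolysis genes were lower, and at 8-fold 0 were.

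Hypoxia response genes split, with 2 higher and 4 lower of 15. With a test against 4-fold 1 was higher and 2 were lower, and at 8-fold 1 and 0. Egln3, an oxygen-dependent hydroxylase that HIF induces, had 1.33, 1.89 and 2.49 CPM in nodes and 12.4, 11.1 and 14.1 CPM in lines (−2.75 ± 0.18). Bhlhe40, a repressor that HIF and the clock both use, was higher, with 8.16, 11.2 and 12.3 CPM in nodes and 1.05, 0.466 and 1.06 CPM in lines (3.64 ± 0.25). Ndrg1, a stress-induced protein, had 17.96 to 25.7 CPM in nodes and 3.26 to 5.86 CPM in lines (2.15 ± 0.19), and at 1.91 without line 6 it no longer passed.

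In the ATF4 stress list 2 were higher and 1 was lower of 24, where 13.9% of all genes were higher and 6.75% lower. Chac1, which degrades glutathione, had 2.03, 2.15 and 3.60 CPM in nodes and 13.8, 13.7 and 16.1 CPM in lines (−2.61 ± 0.18), while Atf3, a stress-induced factor, was higher (2.56 ± 0.39).

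Clock genes were called in both directions. Per2, a repressor of the loop, had 2.87, 4.04 and 4.89 CPM in nodes and 28.7, 22.4 and 25.6 CPM in lines 6, 33 and 38 (−2.67 ± 0.16). Arntl, the activator BMAL1, had 13.2, 14.998 and 15.7 CPM in nodes and 69.9, 61.1 and 70.4 CPM in lines (−2.19 ± 0.09). Rora, which activates Arntl, was higher with 1.65 to 2.68 CPM in nodes and 0.133 to 0.821 CPM in lines (2.53 ± 0.47). Of 16 clock genes 3 were higher and 3 lower, but with a test against 4-fold Arntl and Rora lost their calls and 1 was higher and 1 lower. At 8-fold 1 was higher and 0 lower. At the adjusted p alone 5 were higher and 10 lower. The summed level of the list was 200 to 238 CPM in nodes and 455 to 485 CPM in lines. The labels do not give the time of day at which nodes or cultures were taken.

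The growth machinery gave no call at 4-fold. None of 15 RNA polymerase I genes, 25 ribosome biogenesis genes, 20 mitotic genes and 25 DNA replication genes was called, with medians of 0.31, 0.31, −0.16 and 0.32. At the adjusted p alone, 7 were higher and 2 lower for RNA polymerase I, 12 and 4 for ribosome biogenesis, 5 and 9 for mitosis, and 16 and 7 for replication. Mki67, a marker of cycling cells, had 305, 445 and 476 CPM in nodes and 656, 659 and 471 CPM in lines, and the groups overlapped. Of 27 replication-dependent histone genes 2 were lower, where 6.75% of all genes and 2.34% of protein-coding genes were lower. At the adjusted p alone, 14 of the 27 were lower and 0 higher (median −0.75). The summed level of the list overlapped, at 20629 to 34488 CPM in nodes and 24364 to 62139 CPM in lines. Of the called genes, Hist2h4 had 377 to 709 CPM in nodes and 1854, 6175 and 6932 CPM in lines 6, 33 and 38 (−3.32 ± 0.34). Hist1h2ap and Hist1h2ao, histone H2A genes outside the list, were called lower too (−3.14 ± 0.21 each). They share 93.1% and 93.5% of their 50-base stretches with other genes, so their counts are uncertain.

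Outside the lists, large rises were in secreted, matrix and adhesion genes. Cfd, the complement factor adipsin that fat cells secrete, had 47.9, 86.9 and 136 CPM in nodes and 0 in the lines, at least 1470-fold higher. Vcam1, an adhesion molecule of stroma and vessels, had 76.8, 101 and 127 CPM in nodes and a single count in line 38, a ratio of 5026-fold (902 to 198550). Hp, which binds free haemoglobin, had 60.2, 88.5 and 151 CPM in nodes and again 1 count in line 38, a ratio of 4712-fold (846 to 186127). Igfbp3, which binds insulin-like growth factors, had 16.9 to 39.8 CPM in nodes and 0 in lines, at least 472-fold higher, and Thbs2, a matrix glycoprotein, was at least 213-fold higher.

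The largest falls were of several kinds. Hist1h2aa, a histone H2A gene known from testis and not in the histone list above, had 0.0532, 0.127 and 0.189 CPM in nodes and 117, 153 and 149 CPM in lines 6, 33 and 38 (−10.03 ± 0.18). Tmprss3, a membrane serine protease, had 0.426, 0.561 and 0.754 CPM in nodes and 123, 144 and 135 CPM in lines 6, 33 and 38 (−7.85 ± 0.14). Rnf43, a ubiquitin ligase that lowers Wnt receptors, had 0.141, 0.379 and 0.65 CPM in nodes and 102, 96.0 and 79.4 CPM in lines (−7.79 ± 0.22). Igf2bp3, an RNA-binding protein of fetal tissues and tumours, had 0.0471, 0.352 and 0.564 CPM in nodes and 63.0, 44.3 and 50.6 CPM in lines (−7.29 ± 0.25). Rbm44, an RNA-binding protein known from germ cells, had 0 to 0.13 CPM in nodes and 7.06 to 10.1 CPM in lines (−7.24 ± 0.34). mt-Ty, a mitochondrial tRNA, was at 0 in all nodes and 73.5 to 109 CPM in lines, at least 4001-fold lower.

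**Figure D4:**
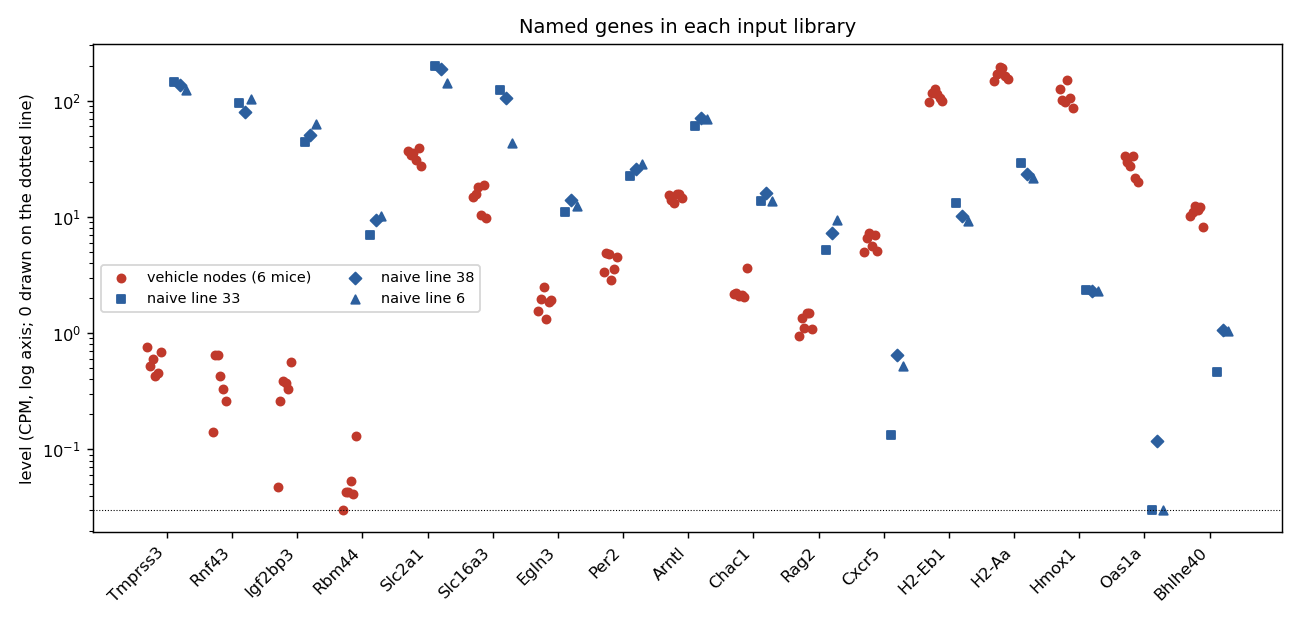
CPM (log axis, 0 on the dotted line) of 17 named genes in each vehicle node (red) and naive line (blue). Examples are Tmprss3 (0.426 to 0.754 CPM in nodes, 123 to 144 CPM in lines) and Bhlhe40 (8.16 to 12.3 CPM in nodes, 0.466 to 1.06 CPM in lines). All were picked among called genes, so the lack of overlap between nodes and lines is no separate result.

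Processed pseudogenes made up much of the lower side. Rpl23a-ps1, a pseudogene of a ribosomal protein, had 0 to 0.13 CPM in nodes and 56.2 to 80.4 CPM in lines (−10.00 ± 0.24), and Rpl26-ps4 had 0.141 to 0.563 CPM in nodes and 38.4 to 77.9 CPM in lines (−7.70 ± 0.30). Their parents were not called: Rpl23a was at −0.02 and Rpl26 at −0.09. Of 1490 processed pseudogenes tested, 38 (2.55%) were higher and 492 (33.02%) were lower, and pseudogenes of all kinds made 523 of the 1099 lower calls (47.6%). Among 12367 protein-coding genes 15.6% were higher and 2.34% were lower. Summed processed pseudogenes were at 18671 to 24012 CPM in nodes and 32578 to 41487 CPM in lines. How reads that match several places were counted in each table is not given in the sources used here, and its part in these counts was not tested.

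**Figure D5:**
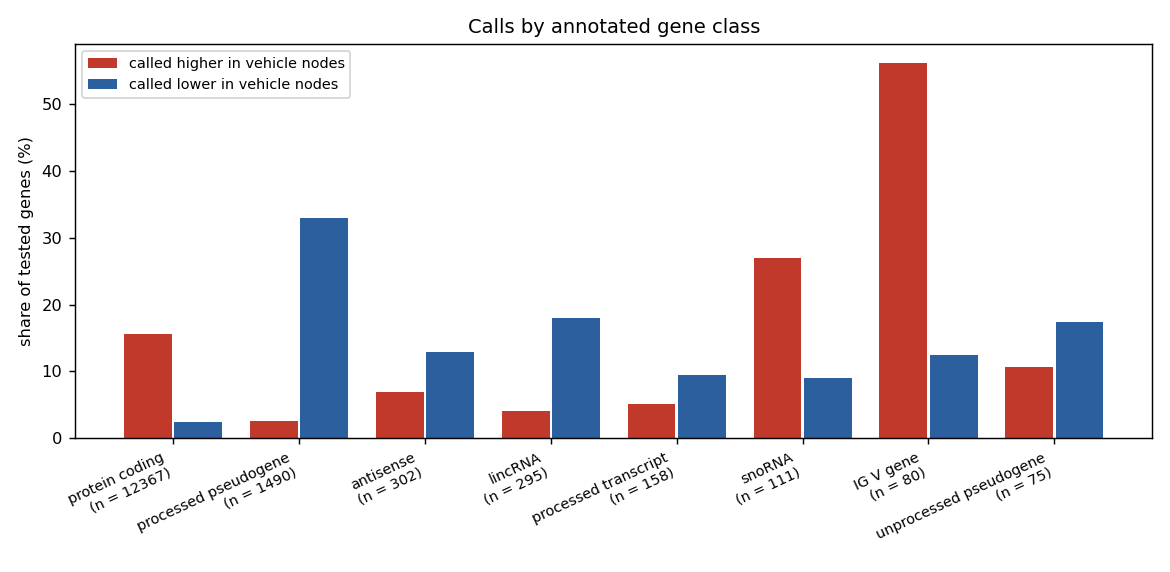
Percent of tested genes called higher (red) or lower (blue) in vehicle nodes than in naive lines, by annotated gene class with the number tested. Processed pseudogenes had 33.02% lower and protein-coding genes 2.34% lower.

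The polysomal RNA of the same mice and lines, taken from messages with at least 4 ribosomes, gave a second set of 9 libraries. Of 15508 genes tested 2507 (16.2%) were higher and 1064 (6.86%) lower in nodes, and 74.1% passed the adjusted p alone. Among genes tested in both fractions, 1967 were higher in both, 94.2% of the input calls and 79.8% of the polysomal calls, and 707 were lower in both, 75.9% and 77.5%. The same animals and cultures gave both fractions. Polysomal libraries of vehicle mice 2, 5 and 6 held 18.06%, 13.24% and 7.15% of counts on Lars2. In mice 1, 3 and 4 the share was 0.379%, 0.324% and 0.851%. With mice 2, 5 and 6 left out, 174 results stayed the same and 3 list counts moved. Stromal genes were higher in this fraction too, for 19 of 20 members, and Col3a1 and Lyz2 were among the genes called. The size of their polysomal rise is not given, as no floor was set in this fraction for lines with few or no counts. Interferon-stimulated genes were higher for 24 of 30, T cell genes for 22 of 23 and macrophage genes for 19 of 19. The falls of Per2 (−2.35 ± 0.17), Egln3 (−3.02 ± 0.30), Tmprss3 (−7.59 ± 0.12) and Rnf43 (−7.54 ± 0.14) were called there as well. Hist2h4 (−1.63 ± 0.33) was not.

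Other mice and lines of the same clones allowed a repeat with no shared library. Clone, tissue, culture and table differed together here as before, so the repeat does not tell their parts apart. Drug exposure differed too, as the nodes were taken soon after dosing and the lines came from relapse. The 18 nodes had received CX5461, an inhibitor of RNA polymerase I, at 35 mg/kg, everolimus, an mTORC1 inhibitor, at 5 mg/kg, or both, and the 9 lines came from relapse after the same drugs, 3 per drug. Of 17267 genes 2985 (17.3%) were higher and 1282 (7.42%) lower in drug-treated nodes than in relapse lines, and 86.1% passed the adjusted p alone. Of genes tested in both, 2060 were higher in both comparisons, 92.2% of the vehicle calls and 77.0% of the drug calls, and 829 were lower in both, 77.2% and 77.9%. Interferon-stimulated genes were higher for 24 of 30, stroma for 19 of 20 and macrophage genes for 18 of 19. Glycolysis genes were lower for 6 of 19, clock genes for 6 of 16 and replication-dependent histones for 7 of 27.

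Over all 36 input libraries, the 24 nodes lay above the 12 lines for 21.2% of genes and below them for 16.0%. Slc2a1 had 21.4 to 38.7 CPM in the 24 nodes and 142 to 291 CPM in the 12 lines, and Per2 had 2.46 to 5.08 CPM in nodes and 21.7 to 51.3 CPM in lines. Several differences did not extend to relapse lines. Rnf43 had 0.131 to 0.643 CPM in the nodes and 0 to 102 CPM in the lines, and its drug comparison was not called (−0.75 ± 0.81). H2-Eb1 had 58.9 to 124 CPM in the nodes and 8.31 to 151 CPM in the lines (0.48 ± 0.26 in the drug comparison), and H2-Aa likewise overlapped (0.84 ± 0.26). Lef1 stood at −1.67 ± 0.39 in the drug comparison. Whether vehicle and drug comparisons differ in these genes was not tested.

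Across the study, the leading heavy segments and the light segment of the nodes stayed the same. Ighv10-1 led the heavy chain in 24 of 24 nodes and Ighv2-2 in 12 of 12 lines, and Igkv3-4 led the light chain in 24 of 24 nodes. The light chain of the lines was not uniform: Igkv1-117 led in 4 of 12, the 3 naive lines and 1 relapse line, and 4 other segments led in the rest. In the 8 relapse lines that it did not lead, Igkv1-117 took 0% to 0.601% of light V counts. Igkv1-117 had 0.664 to 4.48 CPM in the 24 nodes and 0 to 194 CPM in the 12 lines.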

How the data were processed

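Whole-number counts of reads per gene symbol were used as deposited, from ribosome-depleted RNA read as single-end reads of 50 bp, per the labels. GRCm38, TopHat2 and HTSeq are named in the submitters' processing notes; versions, annotation, strand and the counting of reads that match several places are not given in the sources used here. The acute input table lists 35149 genes and that of the relapse study lists 35556. The 32150 in both were used, except that V shares, V counts and V segment numbers took all segments of each table. Genes in 1 table only held 0.135% to 0.159% of node counts and 0.0807% to 0.107% of line counts. The relapse table holds 27 gene names turned into dates.

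Counts were tested with edgeR 4.0.16 (quasi-likelihood, TMM, filterByExpr, Benjamini-Hochberg adjustment over all genes tested) in R 4.3.3, on the 9 libraries alone, and checked on simulated data. Standard errors were derived as the absolute log2 fold change divided by the root of the F statistic. Where the lines or nodes had no count in input RNA, the fold is a bound from a floor of 3 counts over the group. With 1 to 3 counts it is the ratio of scaled summed counts with its 95% counting interval. The drug comparison set the mean of 3 drug node groups against the mean of 3 relapse line groups. Gene classes came from GENCODE M21, which matched 15240 of 16291 tested genes, and shared 50-base stretches from its transcripts.

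The libraries and the 39 gene lists were chosen with earlier results of these data known. Named genes were, among called genes with no overlap and a mean of at least 3 log2 CPM in the higher group, the 12 largest rises and falls outside clone numbers and antigen receptor segments, then up to 2 members per direction of each list, genes named whatever their result, and the leading V segments. Other list members in the text (Bank1, Cd4, Irf7 and the like), Igkv12-46, Hist1h2ap, Hist1h2ao and the parent genes of pseudogenes were chosen after their values were seen. Alternatives were DESeq2 1.42.0, RLE size factors, no filter, all 36 input libraries in 1 model, a test against 4-fold, an 8-fold threshold and libraries left out. Added after seeing the data were protein-coding genes with under 5% shared 50-base stretches, genes of 1 table entered at 0 in the other, and libraries with much Lars2 or Gm26870 left out. A few members of the lists are not reported here by name; they remain in the fits and list counts.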

Additional observations from a re-analysis of the deposited data

Results flagged for a closer look

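In 138 groups of 6 vehicle nodes (the named genes and the list sums), 11 had 1 mouse far from the other 5 by Dixon's test, which chance gives in about 5% of groups. Mouse 4 was apart in Col3a1 at 408 CPM (others 468 to 502), Ccl5 at 6.07 CPM (3.16 to 3.91) and Il2rb at 12.7 CPM (8.55 to 9.42). It was also apart in the summed cytotoxic list at 31.8 CPM (21.1 to 24.4) and the summed Myc network list at 1013 CPM (1171 to 1224). Mouse 6 was apart in Lyve1 at 35.6 CPM (28.4 to 30.3), Chac1 at 3.60 CPM (2.03 to 2.21), the summed Y-linked and Xist genes at 110 CPM (82.9 to 89.6) and the summed metal list at 1020 CPM (1126 to 1179). Mouse 1 was apart in summed cholesterol genes at 1168 CPM (919 to 1009) and the summed BCL2 family at 486 CPM (438 to 445).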

How the results depend on the processing

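The count of higher genes stayed within 1.5 times of 2266 in every alternative run, and the count of lower genes moved further in 4: 3094 with no count filter, 708 with the test against 4-fold, 598 at 8-fold and 260 among protein-coding genes with few shared 50-base stretches. With 1 line, or vehicle mouse 6, left out, 2182 to 2697 genes were higher and 1011 to 1322 lower. In polysomal RNA, with 1 line left out, 2630 to 2674 were higher and 1071 to 1169 lower, and in the drug comparison, with 1 drug's lines left out, 2913 to 2979 and 1233 to 1264. Of 1144 values of named genes in the input, 1119 kept their direction and call, 23 lost the call and 2 changed sign. With the test against 4-fold, Lef1, Fcer2a, Ndrg1, Atf3, Hist1h2ak, Rora and Arntl were among those that lost the call. Both sign changes were in Cdkn2a, which was not called and ran from −0.14 (without line 33) to 0.74 (without line 6) and was −0.07 without line 38. Polysomal Ddx3y ran from −0.12 (without line 33) to 0.00085 (without line 6). In the drug comparison without the CX5461 lines, Ighd became 0.18 and Igkv1-117 −0.31; without the everolimus lines Igkv1-117 became 4.36 and was called, and Igkc 2.14, while Fcer2a (1.90), Bhlhe40 (1.91) and Hspa1b (1.53) lost their calls. Polysomal Slc2a1 lost its call without line 38 (−1.94) and with DESeq2 or RLE size factors (−1.99 and −1.98). The cause was not tested. With protein-coding genes of few shared stretches alone, the higher calls were 1 in place of 7 for plasma cells, where constant regions are not in the protein-coding class, 6 in place of 10 for complement, 4 in place of 8 for erythroid genes and 4 in place of 7 for dendritic cells. Genes within a few counts of 0 in the lines are limited by depth. No paired analysis was possible because vehicle mice 1 to 6 and lines 6, 33 and 38 share 1 number and are different clones.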

Other observations

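The light chain of the cultured lines varied by line. Among the 9 relapse lines, Igkv5-43 led in 3, Igkv4-53 in 2, Igkv4-79 in 2, Igkv4-57-1 in 1 and Igkv1-117 in 1, with leading shares of 34.8% to 64.9%. Their heavy chain leader was Ighv2-2 in each.

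Some list members were listed in the acute table alone and have no line value here. Trac, the alpha constant region of the T cell receptor, had 1.85 to 3.44 CPM in the vehicle nodes, Cxcl10, an interferon-induced chemokine, 1.96 to 4.19 CPM, Ccl8, a monocyte chemokine, 3.68 to 8.33 CPM, and Pf4, a platelet chemokine, 4.26 to 8.93 CPM. Ighv1-28, the second heavy segment of the nodes, had 30.1 to 40.5 CPM.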
